A study of Mus musculus with 8 samples.

Results

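The genes described here build centrioles, centrosomes and the mitotic spindle: 46 genes listed by name, out of 21887 protein-coding genes in the gene table. Each was followed through the sites where the muscle protein APOBEC2 was recovered on chromatin. A called peak was assigned to a gene when it touched the gene or the 1 kb beyond either end, and all 46 genes were found in the table. A site found in at least 2 of 3 libraries was present in 31 of the 46 genes at the earlier time and in 31 at the later time, with 30 genes in common, against 4.27% of all protein-coding genes at the earlier time and 8.79% at the later time. The sites covered most genes of centriole duplication, of the augmin complex and of spindle assembly, and none of the 6 gamma-tubulin genes. Beside the shares of all genes, 0 of 6 does not set the gamma-tubulin genes apart from other genes.

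Chromatin immunoprecipitation followed by sequencing was done in C2C12, an established line of mouse myoblasts, muscle precursor cells that stop dividing and form myotubes in low serum. Cells in medium with 2% horse serum were collected at times titled 14 h and 34 h, and each time had 1 input library and 3 libraries precipitated with polyclonal rabbit antibodies to APOBEC2. The growth protocol in the labels gives 24 h or 34 h for the harvests, so the earlier time is uncertain. The names of all 6 deposited lists carry the tag GFPsh, which the labels do not explain, and the labels do not say that replicates were separate cultures, so the spread between them may be technical. No library from cells without APOBEC2, and none with a control antibody, was used here. Peak lists hold no measure of expression, so the cell type was not checked against its markers.

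A centriole is a small barrel of microtubules that is copied once in each cell cycle, and a pair of centrioles with the material around them forms the centrosome. During mitosis gamma-tubulin rings at the centrosome start new microtubules, augmin starts further ones along the sides of existing microtubules, and motor and bundling proteins shape the spindle. Several of these genes are transcribed mainly in dividing cells, under promoter elements read by E2F factors or by complexes that bind the CHR element, a short sequence common in genes of G2 and mitosis. In myotubes, which no longer divide, proteins of the centrosome move to the surface of the nuclei.

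For replicates 1, 2 and 3 the number of called peaks was 768, 1327 and 797 at 14 h, and 2209, 5025 and 1068 at 34 h. The relative depth of the libraries, recovered from the peak values, was between 0.985 and 1.17, and summits had medians of 19 to 24 fragments. This depth was estimated as the lowest background of a list over its narrowest peak width, relative to replicate 1 of 14 h. Read counts were not used. Differences in list length were larger than differences in this estimate, and the cause of the list lengths was not tested. Values are listed in the order of replicates 1, 2 and 3. Fold is the authors' peak caller's own ratio of precipitated to local background signal at the summit, and for a gene with several peaks it is that of the highest. An exact permutation test of 3 against 3 libraries cannot go below a p of 0.1, so differences between times are given as values and as overlap of the libraries.

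Of the 46 genes, 30, 35 and 29 had a peak in the 3 libraries of 14 h, which is 65.2%, 76.1% and 63.0%. The shares of all protein-coding genes with a peak in those libraries were 3.72%, 6.5% and 3.97%. At 34 h 32, 39 and 25 of the genes had a peak (69.6%, 84.8% and 54.3%), against 9.24%, 18.1% and 4.7% of all genes. The mean share was 68.1% ± 6.99 at 14 h (SD, n = 3) and 69.6% ± 15.2 at 34 h, and the libraries of the times overlapped. The difference of 1.45 points (34 h minus 14 h) became -6.16 points without replicate 2 of 34 h and 9.06 points without replicate 3 of 34 h. With every list shortened to its 768 peaks of highest significance, the shares were 65.2%, 65.2% and 63.0% at 14 h and 52.2%, 54.3% and 52.2% at 34 h, without overlap. The shares of all genes in the shortened lists were 3.72%, 3.98% and 3.87% at 14 h and 3.63%, 3.62% and 3.42% at 34 h, also without overlap. The order of the times for these genes therefore depended on whether the longer lists of 34 h were used whole.

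A site of at least 2 libraries was present at both times in 30 of the 46 genes, against 3.49% of all genes. Cntln had one at 14 h alone and Poc5 at 34 h alone. Of all genes 934 had a site at 14 h, 1924 at 34 h and 763 at both times. Over all genes a site at 34 h alone was therefore more common than one at 14 h alone. In the shortened lists 31 of the 46 genes had a site of at least 2 libraries at 14 h (3.75% of all genes) and 24 at 34 h (3.15%); the 7 genes lost at 34 h were Cep120, Poc5, Cdk5rap2, Cep55, Haus1, Numa1 and Hmmr. Without replicate 1 of 34 h, or without its replicate 2, 25 genes had a site at 34 h and 6 had one at 14 h alone. The share of all genes at 34 h was then 4.48% and 3.92%, against 8.79% with all libraries. A site then had to be present in each of the 2 libraries left. A peak in all 6 libraries was called for 24 of the 46 genes, against 2.26% of all genes. Of the 14 genes without a reproducible site, 10 had a peak in single libraries and 4 had none. A gene without a called peak may still be bound below the threshold of the caller.

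**Figure D1:**
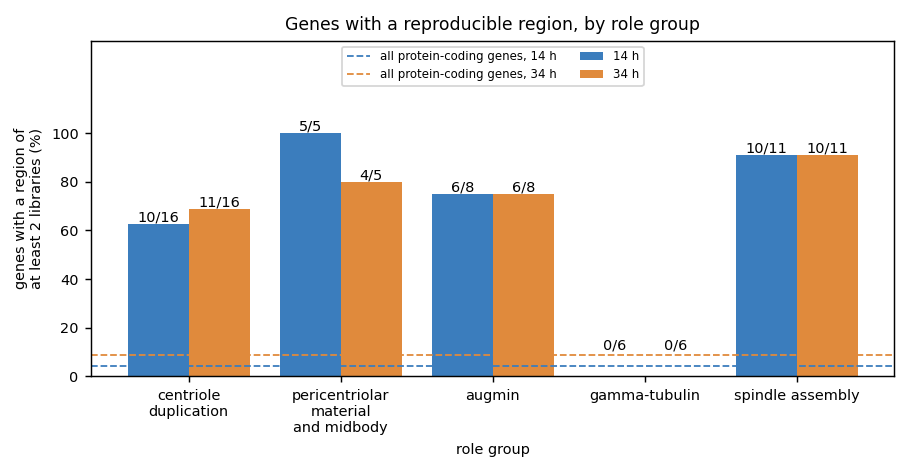
Percent of the genes of each role with a site of at least 2 of 3 libraries at 14 h and at 34 h, with counts above the bars; dashed lines give the percent of all protein-coding genes at each time (4.27% and 8.79%). Gamma-tubulin is at 0 of 6 genes at both times, and spindle assembly at 10 of 11.

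Beside the values stand the 250 bases before the annotated start of a few genes, from the RefSeq promoter table of GRCm38.p6, 5′ to 3′ on the strand of the gene. Capitals mark an E2F-type motif (TTCCCGC or TTGGCGC) or the CHR (TTTGAA), each read on both strands, so that GCGGGAA and TTCAAA are matches on the opposite strand. The genes shown were chosen after their values were seen.

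Plk4, the kinase that starts centriole duplication, is given first, with the scaffold proteins it acts with. Its mean fold was 16.2 at 14 h and 8.76 at 34 h. The medians over the 24 genes with a peak in all 6 libraries were 15.8 and 10.9. Plk4 had folds of 12.7, 19.3 and 16.7 at 14 h and 8.89, 11.3 and 6.05 at 34 h, at chr3:40799860-40800274 (mm10). All 3 libraries of 14 h were above all 3 of 34 h. Cep152, which brings Plk4 to the centriole, had 22.7, 34.3 and 21.6 at 14 h and 10.3, 11.9 and 8.70 at 34 h, at chr2:125625062-125625461, again without overlap. In both genes the site reached into the 250 bases before the start, which are printed here for their E2F-type motif (Plk4 at chr3:40799701-40799950, plus strand; Cep152 at chr2:125625114-125625363, minus strand).
Plk4: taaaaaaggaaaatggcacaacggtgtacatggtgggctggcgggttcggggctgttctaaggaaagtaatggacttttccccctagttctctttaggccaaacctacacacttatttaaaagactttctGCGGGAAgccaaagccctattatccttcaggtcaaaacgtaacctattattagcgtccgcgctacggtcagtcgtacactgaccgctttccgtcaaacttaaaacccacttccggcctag
Cep152: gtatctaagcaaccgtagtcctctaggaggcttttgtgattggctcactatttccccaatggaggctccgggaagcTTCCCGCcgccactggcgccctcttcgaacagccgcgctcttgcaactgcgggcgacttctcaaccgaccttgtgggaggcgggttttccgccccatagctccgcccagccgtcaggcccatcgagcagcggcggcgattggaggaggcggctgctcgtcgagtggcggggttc
The Cep152 motif lay inside the site, at a median distance of 8.5 bp from the summits of the libraries. The Plk4 motif lay outside the site, upstream of it, at a median distance of 196.5 bp from the summits.

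Stil, the Plk4 substrate needed to build the cartwheel, had folds of 13.7, 21.3 and 17.4 at 14 h and 11.1, 18.7 and 10.4 at 34 h. Sass6, the cartwheel protein itself, had 21.2, 30.3 and 26.2 at 14 h and 18.7, 23.1 and 14.2 at 34 h, in a region that also lay in the window of Trmt13. For both genes the times overlapped, and in both replicate 2 was the highest library of each time. Cep192, which recruits Plk4 and pericentriolar material, had 11.3, 25.3 and 12.6 at 14 h and 7.83, 8.45 and 6.05 at 34 h, and Cep57, a pericentriolar protein, had 20.7, 35.3 and 24.6 at 14 h and 17.4, 16.0 and 5.77 at 34 h. These genes were higher in every library of 14 h, and the Cep57 region was shared with Fam76b. The spread within a time was wide for Cep57, from 5.77 to 17.4 at 34 h.

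Cep135, a cartwheel component, had folds of 9.01, 22.5 and 12.0 at 14 h and 8.03, 9.39 and 9.41 at 34 h, and Cep120, which acts in centriole elongation, had 8.82, 11.0 and 6.63 at 14 h and 5.14, 8.23 and 6.05 at 34 h. Their times overlapped. Poc1a, a protein of the centriole wall, had 11.1, 20.7 and 10.4 at 14 h and 16.5, 20.9 and 17.3 at 34 h; its mean was higher at 34 h, but the libraries overlapped. Cenpj, which sets centriole length, had folds of 7.07 and 8.24 at 14 h with no peak in replicate 3, and 13.4, 13.2 and 4.26 at 34 h, with overlap. Poc5, a protein of the inner centriole, had a single peak at 14 h (replicate 2, fold 9.54) and folds of 8.86 and 7.26 in replicates 1 and 2 at 34 h. Of the 16 centriole duplication genes, 10 had a reproducible site at 14 h and 11 at 34 h, and 9 had a peak in all 6 libraries.

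The remaining 5 centriole genes had no reproducible site. Cep63, the partner of Cep152, had a peak only in replicate 2 of 34 h (fold 5.78), as did Cep97, which caps the centriole with Ccp110 (fold 4.07). Poc1b, the paralogue of Poc1a, had peaks in replicate 2 of each time, with folds of 7.85 and 4.54. Cep78 and Ccp110 had no peak in any library.

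Among the genes of pericentriolar material and the midbody, Pcnt and Wdr62 had a peak in all 6 libraries. Pcnt encodes pericentrin, the scaffold of pericentriolar material, and had folds of 20.2, 18.8 and 15.4 at 14 h and 12.5, 12.7 and 10.5 at 34 h, without overlap. It had 2 adjacent regions, each with peaks of all 6 libraries, at chr10:76442211-76442566 and chr10:76442581-76443160. Its 250 bases before the start (chr10:76442913-76443162, minus strand) are shown because the E2F-type motif lay at a median distance of 15.5 bp from the summits.
Pcnt: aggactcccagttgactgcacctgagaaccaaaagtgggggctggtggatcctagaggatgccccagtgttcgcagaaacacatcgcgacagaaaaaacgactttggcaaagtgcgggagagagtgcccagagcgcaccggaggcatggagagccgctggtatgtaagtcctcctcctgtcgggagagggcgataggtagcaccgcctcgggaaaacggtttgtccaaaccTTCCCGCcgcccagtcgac
Wdr62, a spindle pole protein, had 12.2, 24.1 and 10.7 at 14 h and 17.7, 21.4 and 15.5 at 34 h, at chr7:30280202-30280643, with overlap of the times. Cdk5rap2, which anchors gamma-tubulin rings at the centrosome, had lower folds of 6.31, 7.07 and 6.40 at 14 h, and 5.94 and 9.39 in replicates 1 and 2 of 34 h. Cep55, which acts at the midbody in the last step of cell division, had peaks in replicates 1 and 2 of each time, with folds of 9.35 and 9.54 and then 6.20 and 6.83. Cntln, a protein of centriole cohesion, had folds of 7.29, 6.93 and 7.25 at 14 h on 19, 20 and 20 fragments, and no peak at 34 h. Its site lay inside the gene range, at chr4:84884262-84884487.

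Augmin is a complex of 8 subunits, and 6 of them had a reproducible site at each time. Haus6 had the highest mean of the subunits at 14 h, with folds of 17.4, 23.0 and 17.9 at 14 h and 9.12, 13.4 and 7.06 at 34 h, and Haus4 had 12.6, 21.8 and 12.5 at 14 h and 4.81, 9.56 and 5.69 at 34 h. In both genes every library of 14 h was above every library of 34 h. Haus3 had 8.82, 17.0 and 15.0 at 14 h and 8.84, 11.1 and 6.17 at 34 h, in a region shared with Poln, and Haus8 had 8.11, 16.9 and 12.0 at 14 h and 6.42, 11.8 and 6.91 at 34 h, in a region shared with Myo9b. Their times overlapped. Haus5 had 7.56, 10.4 and 7.39 at 14 h and 13.2, 14.6 and 7.80 at 34 h, with a higher mean at 34 h and overlap. Haus1 had 6.01, 7.14 and 8.16 at 14 h, and 7.88 and 7.25 in replicates 1 and 2 of 34 h. Haus7 had a peak only in replicate 2 of 34 h (fold 5.58), and Haus2 had none. The sequence before the start of Haus4 (chr14:54554362-54554611, minus strand) has an E2F-type motif at a median distance of 7.5 bp from the summits. The sequence of Haus6 (chr4:86612056-86612305, minus strand) shows a gene with a peak in all 6 libraries and neither motif.
Haus4: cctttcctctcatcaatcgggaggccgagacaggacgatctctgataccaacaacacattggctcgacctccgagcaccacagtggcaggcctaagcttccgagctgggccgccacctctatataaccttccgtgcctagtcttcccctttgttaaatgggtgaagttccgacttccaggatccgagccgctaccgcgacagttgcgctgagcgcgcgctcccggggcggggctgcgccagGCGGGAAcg
Haus6: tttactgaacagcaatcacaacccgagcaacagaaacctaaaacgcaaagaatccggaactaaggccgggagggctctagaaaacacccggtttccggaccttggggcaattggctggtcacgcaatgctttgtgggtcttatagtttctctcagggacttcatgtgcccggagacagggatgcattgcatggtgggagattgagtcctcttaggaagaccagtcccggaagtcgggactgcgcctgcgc

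The gamma-tubulin genes encode the ring that starts microtubules at the centrosome, and none had a reproducible site. With 4.27% of all genes at 14 h and 8.79% at 34 h, 0 of 6 is near the background. Tubg1, gamma-tubulin itself, had a peak only in replicate 2 of 34 h (fold 4.83), and so did Tubgcp2 (fold 4.89). Tubgcp3 had peaks in replicate 2 of each time, with folds of 6.61 and 5.50. Tubgcp4 had one in replicate 1 of 34 h (fold 5.72), and Tubgcp6 one in replicate 2 of 14 h (fold 6.60). Tubgcp5 had no peak, and the 250 bases before its start (chr7:55793875-55794124, plus strand) hold neither motif.
Tubgcp5: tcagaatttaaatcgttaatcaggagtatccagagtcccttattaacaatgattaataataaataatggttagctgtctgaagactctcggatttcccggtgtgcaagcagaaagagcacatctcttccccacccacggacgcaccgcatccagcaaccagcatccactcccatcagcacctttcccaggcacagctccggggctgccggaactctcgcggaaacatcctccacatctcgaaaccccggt
Over the 10 genes of all roles with a peak but no reproducible site there were 12 such values, with folds from 4.07 to 7.85 on 15 to 22 fragments. For 8 of the 10 genes one of the peaks was in replicate 2 of 34 h, the longest list, and for 6 it was there alone.

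Of the 11 spindle assembly genes, 10 had a reproducible site at each time and 8 had a peak in all 6 libraries. Aspm, a spindle pole protein known from inherited microcephaly, had folds of 15.6, 30.8 and 24.9 at 14 h and 19.3, 27.4 and 16.5 at 34 h, at chr1:139454446-139455045. Spag5, also called astrin, had 17.6, 21.7 and 24.4 at 14 h and 15.4, 19.6 and 15.1 at 34 h, at chr11:78301365-78301786, and Ckap5, a microtubule polymerase, had 14.5, 15.2 and 18.1 at 14 h and 11.3, 16.1 and 14.1 at 34 h. In these 3 genes the times overlapped. Tacc3, the partner of Ckap5 at the spindle, had 14.8, 22.5 and 18.7 at 14 h and 9.12, 6.23 and 7.07 at 34 h, and Prc1, which bundles microtubules of the central spindle, had 10.9, 15.5 and 11.0 at 14 h and 9.37, 10.1 and 5.93 at 34 h. Every library of 14 h was higher in both genes, whose regions were shared with Tmem129 and Rccd1.

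Nusap1, a microtubule-bundling protein, was the gene with the opposite order, with folds of 6.01, 7.68 and 8.59 at 14 h and 9.95, 16.1 and 9.48 at 34 h, in a region shared with Oip5. Tpx2, which activates the kinase Aurora A, had 7.07, 9.90 and 7.36 at 14 h and 11.0, 8.12 and 5.55 at 34 h, and Ckap2l, a spindle protein also called radmis, had 13.4, 20.4 and 10.7 at 14 h and 13.3, 13.6 and 7.40 at 34 h. Their times overlapped. Numa1, which tethers microtubules at the spindle pole, had 8.91, 9.51 and 8.92 at 14 h and 5.98 and 8.05 in replicates 1 and 2 of 34 h, in a region shared with Lrrc51. Hmmr, a spindle protein, had 9.38 and 7.83 in replicates 2 and 3 of 14 h, and 6.28 and 7.34 in replicates 1 and 2 of 34 h, shared with Nudcd2. Ckap2, a microtubule-associated protein of the spindle, had a peak only in replicate 2 of 34 h (fold 5.65). The CHR of Prc1 (chr7:80294226-80294475, plus strand), Ckap2l (chr2:129297213-129297462, minus strand) and Ckap5 (chr2:91526512-91526761, plus strand) is shown because its median distance to the summits was within 30 bp. In Ckap2l the nearest match, 17 bp away, is downstream of the start and outside the printed stretch.
Prc1: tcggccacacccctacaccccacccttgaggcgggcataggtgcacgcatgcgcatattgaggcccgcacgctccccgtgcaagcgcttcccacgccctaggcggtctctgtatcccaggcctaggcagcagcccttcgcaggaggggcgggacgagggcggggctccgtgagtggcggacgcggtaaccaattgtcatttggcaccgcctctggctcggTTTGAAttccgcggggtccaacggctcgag
Ckap2l: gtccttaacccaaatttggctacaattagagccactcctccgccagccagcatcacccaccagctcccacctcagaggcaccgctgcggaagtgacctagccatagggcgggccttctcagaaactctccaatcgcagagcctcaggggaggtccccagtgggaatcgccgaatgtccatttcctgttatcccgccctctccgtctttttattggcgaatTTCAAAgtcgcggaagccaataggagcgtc
Ckap5: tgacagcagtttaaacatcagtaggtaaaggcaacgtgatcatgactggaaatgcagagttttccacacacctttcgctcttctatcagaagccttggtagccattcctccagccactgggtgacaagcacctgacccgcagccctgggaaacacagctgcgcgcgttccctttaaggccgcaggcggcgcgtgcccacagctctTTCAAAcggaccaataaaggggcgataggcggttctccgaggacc

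**Figure D2:**
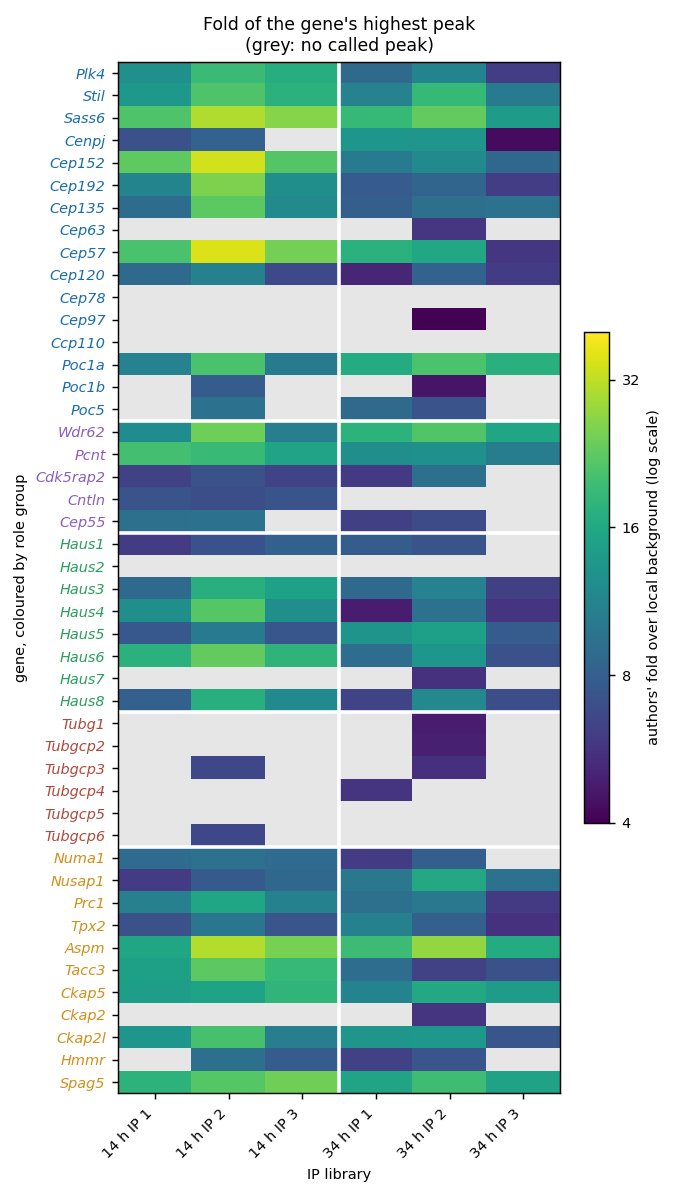
Heat map of the fold over local background of the highest peak of each of the 46 genes (rows, coloured by role) in the 6 libraries (columns, 14 h left and 34 h right); colour follows the authors' fold on a log scale and grey means no called peak. Cep152 and Cep57 reach the highest values at 14 h, the gamma-tubulin genes are grey but for single libraries, and Nusap1 is higher in all libraries of 34 h.

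Comparing the times over the 24 genes with a peak in all 6 libraries, fold was higher in every library of 14 h for 9 genes (Plk4, Cep152, Cep192, Cep57, Pcnt, Haus4, Haus6, Prc1 and Tacc3), against 33.9% of the 495 protein-coding genes with a peak in all 6 libraries. It was higher in every library of 34 h for Nusap1 alone, against 2.02% of the 495, and the libraries overlapped for 14 genes. The share at 14 h, 9 of 24, was near the background. The mean log2 fold of the 24 genes was 3.90 ± 0.33 (SD, n = 3) at 14 h and 3.42 ± 0.30 at 34 h, a difference of -0.48. With 1 library left out the difference lay between -0.63 and -0.30; it was -0.30 both when replicate 2 of the earlier time and when replicate 3 of the later time was omitted. For the other 471 genes with a peak in all 6 libraries the difference was -0.45, and the difference between the gene sets changed by -0.03 from 14 h to 34 h. In replicate 2 of 14 h the fold was the highest of its time for 20 of the 24 genes, in replicate 2 of 34 h for 20, and in replicate 3 of 34 h it was the lowest for 17.

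Fold sets summit fragments against local background, and both were recovered for each peak. To compare libraries, each was divided by the lowest background of its list, which moves with depth and with the fragment length the caller used. On this scale the summit height was higher in every library of 14 h for 3 of the 24 genes (Plk4, Tacc3 and Ckap5), against 18.6% of the 495, and higher in every library of 34 h for none, against 0.404%. Divided by relative depth alone, the summit height was higher in every library of 14 h for Tacc3 alone (1 of 24, against 1.82% of the 495) and higher in every library of 34 h for none (0.808%). The calls for Plk4 and Ckap5 thus depended on the scale. Per relative depth, the difference of the mean log2 height of the 24 genes was -0.16, and -0.028 relative to the other genes with a peak in all 6 libraries. Relative local background was higher in every library of 34 h for 13 genes, against 63.2%, and higher in every library of 14 h for Poc1a, Wdr62, Haus5 and Ckap5, 4 genes, against 12.9%. The mean log2 of the 24 genes' relative background was 0.82 ± 0.03 at 14 h and 1.14 ± 0.03 at 34 h, without overlap. For the other 471 genes it was 0.80 ± 0.01 and 1.13 ± 0.03, also without overlap. The background of each time rests on 1 input library, so the time and that input cannot be told apart. The 3 background values of a time are therefore not independent, and their SD and lack of overlap do not measure a spread of replicates.

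Cep152 and Poc1a show the 2 parts of the ratio. Cep152 had 48, 82 and 48 summit fragments at 14 h and 57, 76 and 55 at 34 h, over a local background of 1.16, 1.42 and 1.26 and then 4.65, 5.45 and 5.44 fragments. Its fragment counts overlapped while its background, which rests on 1 input library per time, did not. Poc1a had 44, 82 and 44 and then 46, 66 and 49 summit fragments, over a background of 3.05, 3.00 and 3.32 at 14 h and 1.85, 2.21 and 1.89 at 34 h, the opposite order of background. Plk4 had 35, 53 and 49 summit fragments at 14 h and 30, 44 and 23 at 34 h, and Tacc3 had 41, 62 and 55 and then 39, 42 and 34. For Tacc3 the fold and the height on both scales were higher in every library of 14 h, whereas the height of Plk4 per relative depth overlapped between the times.

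**Figure D3:**
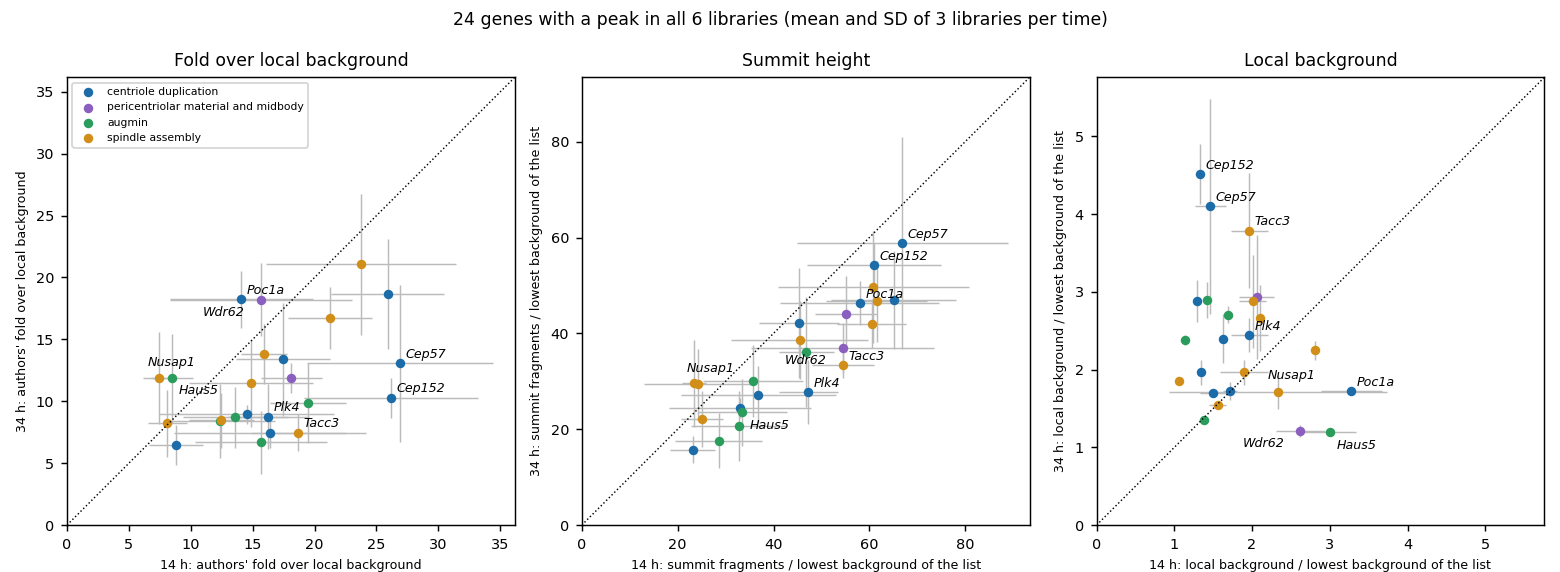
Mean and SD of 3 libraries at 14 h (x) and 34 h (y) for the 24 genes with a peak in all 6 libraries: fold, summit height scaled to the lowest background of the list, and relative local background. Most genes lie under the diagonal by fold and by height on this scale. A background higher in every library of 34 h was found for 13 genes. Poc1a, Wdr62, Haus5 and Ckap5 had one higher in every library of 14 h. The backgrounds of a time share 1 input library, so their SD is not a spread of replicates.

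Most of the sites lay at gene starts. Of the 32 genes with a reproducible site 28 had an entry in the promoter table, and for 25 of them the median summit was within 300 bp of an annotated start and for 20 within 100 bp. The summit was downstream of the start in 12 genes and upstream in 16, with a median of -1.25 bp (negative is upstream). The exceptions beyond 300 bp were Cep57 (-465.5 bp), Tacc3 (407 bp) and Numa1 (-35789 bp from its only entry, at the boundary of the gene as the table gives it). Cenpj, Poc1a, Wdr62, Cntln and Haus1 had their region outside the window around the gene boundaries. For the 4 of them with an entry the median summit was -15, 272, -0.5 and 73 bp from a RefSeq start inside the gene range. Of the 32 regions 9 also lay in the window of another protein-coding gene, where the peak cannot be assigned to one of the pair, and 23 did not. No matching share over all genes with a site is given for these distances and shared regions. They therefore do not set the genes apart from other genes with a site. The genes had a median length of 32649 bp against 17169 bp for all genes. With the interior of genes left out, 26 had a site at 14 h and 27 at 34 h, against 3.87% and 7.29% of all genes.

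**Figure D4:**
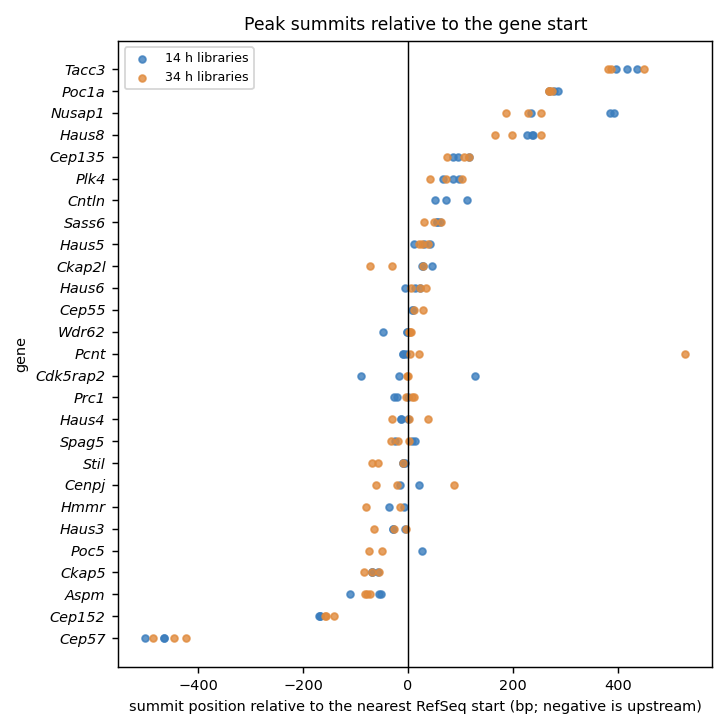
Distance in bp from the summit of each library to the nearest annotated start for the genes with a reproducible site and a promoter entry, without Numa1, coloured by time; negative is upstream. The median summit of 25 genes is within 300 bp of the start, Cep57 and Tacc3 lie farther out, and 1 library of Pcnt had its highest summit in the other of the 2 regions of that gene.

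Promoter entries of 300 bases, 250 before and 50 after the start, were found for 40 of the 46 genes (45 entries); Cep192, Cep120, Haus1, Tubg1, Tubgcp2 and Tpx2 had none. The 45 promoters include those of genes without a site, and 32 belong to genes with a reproducible site. An E2F-type motif was in 31.1% of the 45 and in 40.6% of the 32. It was in 6.81% of all 32851 promoters, 8.69% of those of protein-coding genes and 27.5% of those of genes with a 14 h site. The CHR was in 28.9% of the 45 and 37.5% of the 32. It was in 17.9% of all promoters, 16.0% of those of protein-coding genes and 23.3% of those of genes with a 14 h site. The CCAAT box (CCAAT), a common promoter element read by NF-Y, was in 51.1% of the 45 and 59.4% of the 32. It was in 37.4% of all promoters, 38.2% of those of protein-coding genes and 49.7% of those of genes with a 14 h site. These shares are descriptions of the letters present, and a match is not shown to be bound.

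Both motifs were counted by role, with no test. Of the 28 genes with a reproducible site and an entry, 11 held an E2F-type motif, 10 held the CHR, 7 held neither and none held both. Of the 762 genes with a 14 h site and an entry, 32.4% held an E2F-type motif, 26.9% the CHR, 47.2% neither and 6.56% both. E2F-type motifs were in 4 of the 9 centriole genes (Plk4, Stil, Cep152 and Cep57), 3 of the 5 pericentriolar and midbody genes (Wdr62, Pcnt and Cntln) and 4 of the 5 augmin genes (Haus3, Haus4, Haus5 and Haus8), and in none of the 9 spindle assembly genes. The CHR was in 6 of those 9 (Prc1, Aspm, Ckap5, Ckap2l, Hmmr and Spag5), in Sass6, Poc5, Cdk5rap2 and Cep55, and in no augmin gene. The median distance from the motif to the summits was within 30 bp in 5 genes with an E2F-type motif (Cep152, Haus4, Haus5, Pcnt and Wdr62). The same held for 5 genes with the CHR (Cep55, Ckap2l, Ckap5, Prc1 and Spag5). No matching share over all genes with a site and a motif is given, so these distances do not set the genes apart. Of the 12 genes without a reproducible site that had an entry, Tubgcp3 held an E2F-type motif and Ckap2 the CHR.

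Other genes of the same structures, 57 by name and not among the 46, were counted in the same way. A reproducible site was present in 26 at 14 h (45.6%) and 28 at 34 h (49.1%), against 4.27% and 8.79% of all genes. A peak in all 6 libraries was called for 14 of the 57, against 2.26% of all genes. Among 31 further centriole and centrosome genes the counts were 11 and 12, and those with a peak in all 6 libraries were Cep295 (14.9 and 13.5), Sclt1 (10.9 and 12.9), Cep128 (21.6 and 16.7), Nek2 (13.3 and 8.53) and Mcph1 (20.3 and 17.9), with mean folds at 14 h and 34 h in parentheses. Among 4 further gamma-tubulin genes the counts were 1 and 2, and Mzt1 (11.7 and 9.77) shared its region with Bora. Among 22 further spindle genes 14 had a site at each time. Those with a peak in all 6 libraries were Bora, Kif15 (20.5 and 11.2), Kifc1 (18.1 and 12.6), Gtse1 (30.7 and 18.5), Dlgap5 (24.0 and 14.1), Rcc1 (28.5 and 20.8), Fam83d (11.5 and 6.58) and Pimreg (20.1 and 16.1).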

How the data were processed

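The values come from called peaks of 6 APOBEC2 immunoprecipitation libraries, 3 per time. Per the submitters' processing notes, the tools were Subread and MACS2 and the build mm10. Tool versions and the threshold of the caller were not given in the sources used here. List names pair each library with the input of the same time. The deposited fold is a linear ratio to local background, the significance of a peak is deposited as −log10 of its p-value and of its q-value, and the deposited integer score was not used. The lowest −log10 q of a list was between 1.58 and 2.90, and the lowest summit stood on 10 or 11 fragments.

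Gene ranges of 21887 protein-coding genes came from RefSeq on GRCm38.p6, which has the mm10 primary assembly. Peaks of libraries overlapping by at least 1 bp were merged, and a region was reproducible with peaks of at least 2 of 3 libraries. Fold and p-value of each peak were solved for its whole number of summit fragments and its background, for 100% of peaks within 0.001 on the −log10 p scale. The scripts (Python 3.11.15, numpy 2.4.6, pandas 2.3.3, scipy 1.17.1) were tested on simulated data.

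The 46 genes, the 57 further genes, their roles and the motifs were chosen with earlier results of these data known. All 46 genes are accounted for: genes with a reproducible site are given with every library, the others with single peaks or as without peak, and of the further genes those with a peak in all 6 libraries are named. Permutation tests planned on means over the genes are not reported, because the genes were chosen with results known. The alternatives, whose effect is given in the closing section, changed the threshold, list length, window, overlap, libraries required, value used and libraries included. Summit height in place of fold, on either scale, was added after the data were seen.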

Additional observations from a re-analysis of the deposited data

How the results depend on the processing

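Of 111 recomputed values 89 stayed within their limits and 22 did not. With lists of equal length the share of genes with a peak was -11.6 points at 34 h relative to 14 h, against 1.45 points as reported. The mean shares of all genes were then 3.86% at 14 h and 3.56% at 34 h, and the cause of the shift was not tested. At a −log10 q of at least 5 the difference for the 46 genes was -2.17 points. With equal lists 7 genes had a site at 14 h alone (Cep120, Cdk5rap2, Cntln, Cep55, Haus1, Numa1 and Hmmr) and 0 at 34 h alone. The count at 14 h alone, 1 as reported, was 4 with all 3 libraries required, 2 with any 1 library and 0 with gene interiors left out. The count at 34 h alone, 1 as reported, was 2 with 50% reciprocal overlap and 7 with any 1 library. Leaving out 1 library gave -6.16 to 9.06 points (lowest without replicate 2 and highest without replicate 3 of 34 h), 1 to 6 genes at 14 h alone and 0 to 4 at 34 h alone. It was 6 at 14 h alone without replicate 1 or replicate 2 of 34 h, whose peaks are the ones shared by Cdk5rap2, Cep55, Haus1, Numa1 and Hmmr. The count at 34 h alone was 3, 4 and 2 without replicates 1, 2 and 3 of 14 h. No matching shares over all genes are given for the counts at a single time, so they do not set these genes apart.

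The log2 fold difference of genes with a peak in all 6 libraries, -0.48 as reported, was -0.16 with summit height per relative depth in its place (added after the data were seen) and -0.63 to -0.30 with 1 library left out. Relative to other genes the difference, -0.03 as reported over 24 genes, was 0.00020 at a −log10 q of at least 5, 0.0014 with the widest peak, 0.0033 with lists of equal length, -0.11 with gene interiors left out, and -0.10 to 0.022 with 1 library left out (-0.10 for replicate 1 of 14 h and 0.022 for replicate 3 of 34 h). The genes with a peak in every library used numbered 22 at that −log10 q, 21 with equal lists or without interiors, and 24 to 27 with 1 library left out. The reproducible counts at 14 h stayed between 28 and 31, and those at 34 h between 25 and 31, with 1 library left out. The shares of all genes then lay between 2.98% and 4.27% at 14 h and between 3.92% and 8.79% at 34 h. Correlations of same-numbered libraries' deviations were 0.011, 0.117 and 0.015 over 495 genes, and those of differently numbered libraries lay between -0.081 and 0.065. Such low values cannot show whether replicate numbers pair the libraries. A replicate block cannot move the mean differences (1.45 points, -0.48 and -0.03) in this balanced design. The SD of the differences between same-numbered libraries was 9.05, 0.24 and 0.046. The pooled SD of libraries within a time was 11.8, 0.32 and 0.032. These SDs are unlike measures, and neither is the error of a mean difference. Summits stand on few fragments, which limits each fold.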
